A study of Homo sapiens with 3 samples.

Results

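Genes that take up, store, bind and export zinc, iron and copper were described in stratified cultures of an immortalized corneal epithelial cell line. Members were the probe sets that the platform annotation assigns to exactly 1 gene of the SLC11, SLC30, SLC31, SLC39, SLC40 or SLC41 carrier families, to a metallothionein, or to *MTF1*, *TF*, *TFRC*, *FTH1*, *FTL*, *ACO1*, *IREB2*, *ATOX1*, *ATP7A* or *ATP7B*. The rule uses names and no measured value. It took 61 of the 19071 probe sets that name 1 gene, and these stood for 37 genes. *FTH1*, *IREB2* and *SLC40A1* were not among them and were not analysed here. Of the 37 genes 22 had 1 probe set and 15 had several, up to 4. No probe set of the table named a member together with another gene.

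The cells were of the SV40-immortalized human corneal epithelial line (iHCE), transformed by the large T antigen of that virus, at passages 22 to 23. They were grown for 7 days under medium on collagen-coated filters and were then air-lifted, which makes the layer stratify, in DMEM/Ham's F12 with 15% FBS, 5 µg/ml insulin, 0.1 µg/ml cholera toxin, 10 ng/ml EGF, 0.5% DMSO and, from the air-lift on, 40 µg/ml ascorbic acid. RNA of 3 independent replicate cultures was hybridized to 1 HG-U133A array each. Electrical resistances were 489, 439 and 468 Ω · cm2 in cultures 1, 2 and 3. All 3 form 1 group without a control arm. Arrays of native corneal epithelium, with which the study compared the line, were not analysed here, so no member can be called raised or lowered against tissue, and the model is 1 transformed line. The values are log2 expression values that the authors computed by RMA. A probe set counted as above background where it passed, on all 3 arrays, the level under which 95% of 60 genes of other tissues stayed on that array, which was 7.12, 7.03 and 7.10 in cultures 1, 2 and 3. Affinities differ between probe sets, so each value was read against this background and between cultures, and members were not ranked by level. The background and the choice of a gene's brightest probe set do compare levels across probe sets. In bulk RNA fewer cells with a transcript and less transcript per cell cannot be told apart.

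Of the corneal epithelial markers *KRT3*, *KRT12*, *PAX6*, *ALDH3A1*, *KRT5* and *KRT14*, 0 of 6 measured were above background, from 4.61 to 7.11. The defining markers of the labelled tissue thus stayed under the threshold, which does not show that their transcripts are absent. *PAX6* came closest, with 7.11 in culture 1 against that array's threshold of 7.12. Of 4 simple epithelial markers (*KRT7*, *KRT8*, *KRT18* and *EPCAM*) 4 were above background, and so were 3 of 3 proliferation markers. Markers of keratocytes (4 measured), melanocytes (3), immune cells (4), endothelium (3) and red cells (1) were not above background on any array, and of 3 goblet cell markers *SPDEF* was. The array of culture 1 stood slightly apart, with Pearson's r across all probe sets of 0.988 and 0.987 to cultures 2 and 3, against 0.994 between those. The 3′ probe set of *GAPDH* exceeded its 5′ probe set by 1.64, 1.34 and 1.28 log2 units in cultures 1, 2 and 3, a measure of RNA integrity and labeling. For *ACTB* the same difference ran from 2.99 in culture 1 to 3.25 in culture 2.

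Zinc enters the cytosol through ZIP carriers (SLC39) and leaves it, into organelles or out of the cell, through ZnT carriers (SLC30). Free zinc activates the transcription factor MTF1, which binds metal response elements in the promoters of metallothioneins, small cysteine-rich proteins that bind zinc and copper, and of the zinc exporter gene *SLC30A1*. Iron arrives on transferrin, is taken up by the transferrin receptor, passes the endosomal membrane through DMT1 (*SLC11A2*) and is stored in ferritin. Iron regulatory proteins stabilize the receptor mRNA and block ferritin translation when iron is low, so the ferritin transcript level alone does not give the protein. Copper enters through CTR1 (*SLC31A1*) and is handed by the chaperone ATOX1 to the pumps ATP7A and ATP7B.

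The promoters of *MT2A*, *MT1H*, *MT1X* and *MT4*, the 4 of 9 metallothionein genes with a sequence here, are shown because they hold more metal response element cores than most promoters, and that of *SLC30A1* as another known MTF1 target. The core was searched as TGCACNC and TGCGCNC on both strands in the 250 bases before each transcription start, in RefSeq sequence of GRCh38.p14, with matches on opposite strands counted apart even where they overlap. Sequences were matched for 29 of the 37 genes. Capitals mark the cores, and each line runs 5′ to 3′ on the strand of the gene and ends at the base before the start. The windows are chr16:56608334-56608583 (+) for *MT2A*, chr16:56669564-56669813 (+) for *MT1H*, chr16:56682220-56682469 (+) for *MT1X*, chr16:56564823-56565072 (+) for *MT4* and chr1:211579162-211579411 (-) for *SLC30A1*.
MT2A: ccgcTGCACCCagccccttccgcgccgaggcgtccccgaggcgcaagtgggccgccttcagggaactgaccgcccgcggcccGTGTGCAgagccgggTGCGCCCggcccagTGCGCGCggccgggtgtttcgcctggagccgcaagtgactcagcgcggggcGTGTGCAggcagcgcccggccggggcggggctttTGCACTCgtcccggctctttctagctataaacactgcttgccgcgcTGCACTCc
MT1H: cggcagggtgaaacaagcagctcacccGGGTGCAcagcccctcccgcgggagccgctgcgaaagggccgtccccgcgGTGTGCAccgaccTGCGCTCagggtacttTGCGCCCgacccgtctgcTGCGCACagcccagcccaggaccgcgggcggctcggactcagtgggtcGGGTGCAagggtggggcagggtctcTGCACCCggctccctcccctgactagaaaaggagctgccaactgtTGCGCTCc
MT1X: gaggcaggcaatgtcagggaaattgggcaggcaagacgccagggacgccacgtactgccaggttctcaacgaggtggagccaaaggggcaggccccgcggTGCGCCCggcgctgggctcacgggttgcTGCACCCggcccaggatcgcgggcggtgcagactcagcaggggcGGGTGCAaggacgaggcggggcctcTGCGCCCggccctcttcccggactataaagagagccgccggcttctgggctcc
MT4: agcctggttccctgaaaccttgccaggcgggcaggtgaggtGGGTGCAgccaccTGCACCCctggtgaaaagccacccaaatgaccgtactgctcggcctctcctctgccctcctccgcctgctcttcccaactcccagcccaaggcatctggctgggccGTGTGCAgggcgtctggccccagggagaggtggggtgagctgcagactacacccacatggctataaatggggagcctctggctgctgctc
SLC30A1: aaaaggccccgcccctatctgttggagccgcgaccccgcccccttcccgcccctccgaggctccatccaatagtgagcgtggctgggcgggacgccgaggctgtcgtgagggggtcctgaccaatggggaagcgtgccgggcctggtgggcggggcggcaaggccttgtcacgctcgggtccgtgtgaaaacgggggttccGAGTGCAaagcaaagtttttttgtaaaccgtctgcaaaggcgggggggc

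The *MT2A* promoter held 7 cores, that of *MT1H* 8, that of *MT1X* 4 and that of *MT4* 3. Of all 35116 promoter windows of this length 24.8% held at least 1 core, 1.58% at least 3 and 0.370% at least 4. *SLC30A1* had 1, on the opposite strand. Of the 42 windows of member genes 16 held a core and 5 held at least 3, the 4 metallothionein windows and that of *TFRC*. In *TFRC* 2 of the 3 matches overlapped on opposite strands, and the windows of *MTF1* and *FTL* had none. A match is a match of letters and shows no binding. Metallothionein promoters are known to hold these elements and were shown for their cores, so the counts describe them and test nothing.

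**Figure D1:**
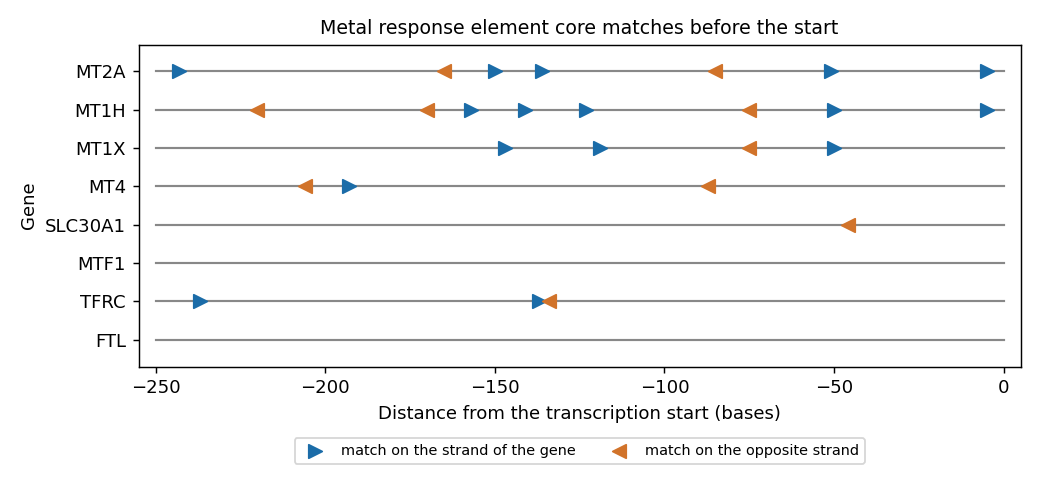
Positions of metal response element cores (TGCACNC or TGCGCNC) in the 250 bases before the transcription start of 8 genes, with the distance from the start in bases on the horizontal axis. Triangles stand for matches on the strand of the gene (blue) or the opposite strand (orange), and *MT1H* has the most, 8, while *MTF1* and *FTL* have none.

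A somewhat larger share of metal handling probe sets than of all probe sets was above background in the iHCE cultures, but not once probe sets that may bind several transcripts were left out of members and panel alike. Of the 61 probe sets 28 (45.9%) were above background on all 3 arrays, against 36.4% of all 19071. Counted by gene at the brightest probe set, 21 of 37 (56.8%) were above it, against 45.0% of all 11963 genes. The members are a chosen list, so these shares are a description. Another 4 probe sets exceeded the threshold on 1 or 2 arrays and 29 on none. The one-sided limma test of the mean over the threshold, adjusted over all probe sets, was passed by 28 members, against 35.4% of all probe sets. Of the 16 member probe sets marked _x_at, which may bind transcripts of several genes, 12 were above background, against 42.8% of all such probe sets. Of the 24 marked neither _x_at nor _s_at, 8 were (33.3%), against 31.7% of all of that kind. With the threshold taken from panel probe sets without these marks too, 8 of 24 member probe sets and 8 of 22 member genes were above it, against 35.9% of all probe sets and 40.0% of all genes, which turned the direction.

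Metallothioneins gave strong signals at every _x_at probe set and stayed at background at the others. *MT2A*, a widely expressed isoform, read 13.66, 13.18 and 13.38 in cultures 1, 2 and 3, a mean of 13.41 ± 0.24 (SD, n = 3) that lay 6.32 log2 units over the threshold (limma, one-sided, adjusted p = 6.6e-10). It was above background by a wide margin on each array, and highest in culture 1. *MT1X* read 11.40, 10.85 and 10.87 at 1 probe set and 12.50, 12.15 and 12.28 at the other, both highest in culture 1. At the first the other cultures lay close together, and at the second culture 3 lay between. *MT1G* read 11.59, 11.13 and 11.24 at its _x_at probe set, again highest in culture 1. The other _x_at probe sets varied less. *MT1H* read 11.91, 11.75 and 11.84, and *MT1E* read 11.74, 11.54 and 11.67 at 1 probe set and 10.16, 10.24 and 10.20 at the other. *MT1F* read 11.68, 11.65 and 11.69 at its steadiest probe set, with the smallest SD of the members above background (0.023), and 10.06, 9.91 and 9.94 at the other.

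All 9 metallothionein probe sets above background were of the _x_at kind, and the 4 without this mark were not above background on any array. The _at probe set of *MT1G* read 5.16, 5.20 and 5.15, under the threshold, so the probe sets of *MT1G* disagree on whether it is above background. *MT1M* read 5.44, 5.26 and 5.36. *MT3*, a metallothionein of brain, read 6.40, 6.41 and 6.31, and *MT4*, known from differentiating stratified epithelia, 6.43, 6.15 and 5.88. The coding regions of the MT1 and MT2 genes are very similar, so the signal of 1 isoform cannot be assigned from these probe sets, and the 9 do not count as 9 independent genes.

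**Figure D2:**
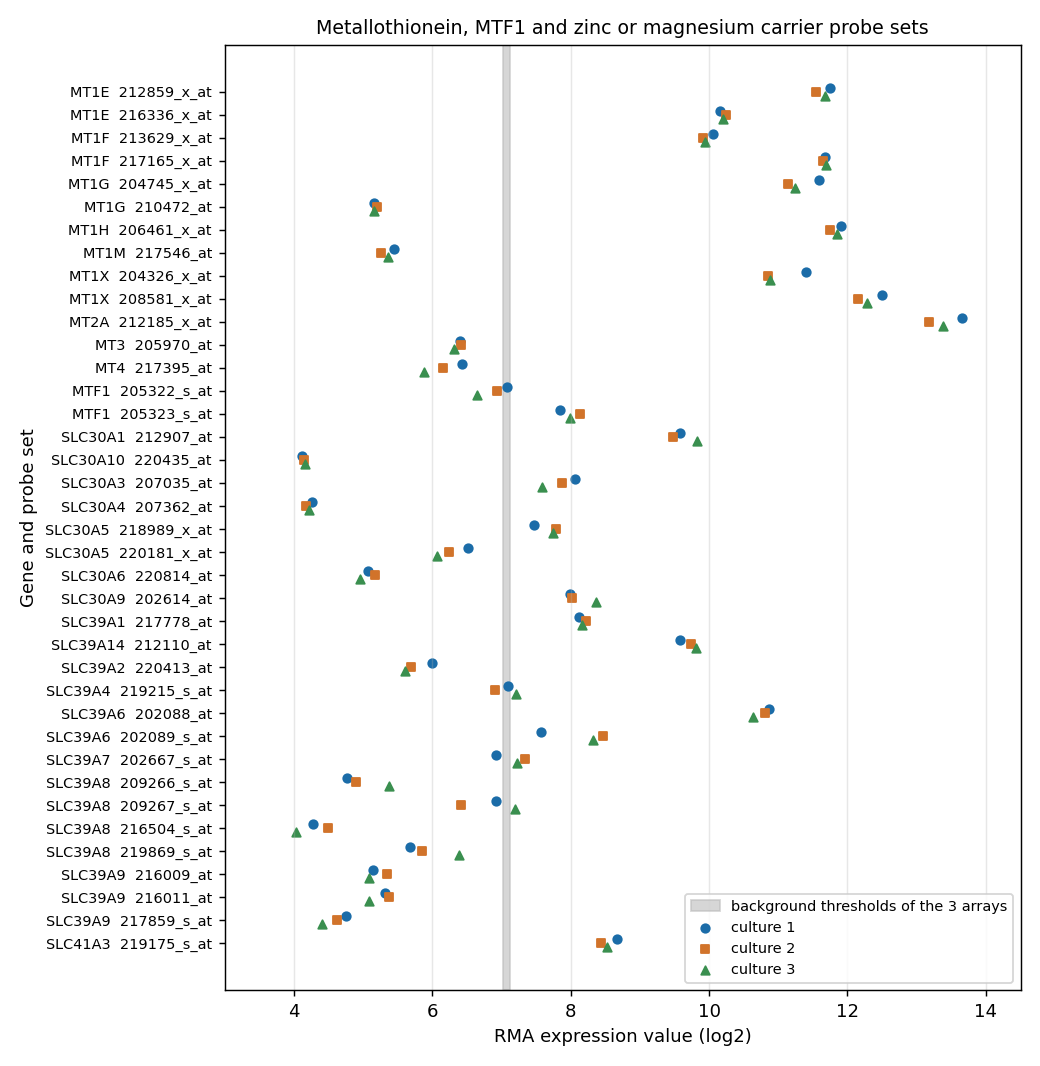
RMA log2 expression values of 38 probe sets of metallothioneins, *MTF1* and the zinc and magnesium carriers, 1 point per culture, with the grey band spanning the background thresholds of the 3 arrays (7.03 to 7.12). The 9 _x_at metallothionein probe sets lie to the right of the band in every culture, from 9.91 to 13.66, and the other 4 lie to the left of it, from 5.15 to 6.43.

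*MTF1*, the zinc-sensing factor that drives metallothionein transcription, was above background at 1 of its 2 probe sets. That probe set read 7.85, 8.13 and 7.99 (limma, one-sided, adjusted p = 3.7e-05), with culture 2 the highest. The other read 7.09, 6.93 and 6.65, with culture 1 the highest, and stayed under the threshold on every array. With other thresholds the calls changed, since the first probe set was no longer above background at 3 scaled MADs over the panel median (mean over the threshold 0.34), and the second was above it with the 90th percentile (0.15).

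Of the 7 genes of the ZnT family (SLC30) measured 4 were above background. *SLC30A1*, the ZnT carrier of the plasma membrane and a known MTF1 target, read 9.57, 9.48 and 9.82 (mean 9.63 ± 0.18, SD, n = 3, limma adjusted p = 2.7e-08). The cultures differed by 0.34, with culture 3 the highest. *SLC30A9*, a ZnT family member of mitochondria, read 7.99, 8.02 and 8.37. *SLC30A3*, known from synaptic vesicles of neurons, read 8.06, 7.88 and 7.59 and was above the threshold on all 3 arrays (limma, adjusted p = 0.00021). Culture 3 was its lowest. *SLC30A5*, which supplies zinc to the early secretory pathway, read 7.47, 7.79 and 7.75 at 1 probe set and 6.52, 6.24 and 6.07 at the other, so its probe sets disagreed. The call of the first ended with the highest panel gene or 3 scaled MADs over the panel median as threshold. The first lay lowest and the second highest in culture 1. *SLC30A4*, *SLC30A6* and *SLC30A10* were at background, with means of 4.22, 5.07 and 4.14.

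Of the 8 zinc importer genes measured 3 were above background. *SLC39A14* (ZIP14), which carries zinc, iron and manganese, read 9.58, 9.75 and 9.81 (limma, adjusted p = 2.1e-08). *SLC39A1* (ZIP1), a plasma membrane importer, read 8.13, 8.22 and 8.17 with an SD of 0.046. Both thus varied little between cultures, and in both culture 1 was the lowest. *SLC39A6* (ZIP6, LIV-1), linked to epithelial-mesenchymal transition in development and cancer, had both probe sets above background. They read 10.87, 10.80 and 10.64 at 1 and 7.57, 8.47 and 8.33 at the other. In the first culture 1 was the highest, and in the second it was the lowest, with a difference of -0.83 from the mean of the other cultures and a range of 0.90 that 2.55% of all probe sets above background reached or exceeded. The probe sets of this gene therefore oppose each other on culture 1, and no difference of the gene between cultures can be read.

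The remaining ZIP genes lay near or under the threshold. *SLC39A7* (ZIP7), which releases zinc from the endoplasmic reticulum, read 6.92, 7.34 and 7.22 and exceeded the threshold on 2 arrays (limma, adjusted p = 0.66). *SLC39A4* (ZIP4), the intestinal zinc importer, read 7.09, 6.91 and 7.22 and exceeded it on 1. Neither could be told from background by this threshold, and both were above it with the 90th percentile of the panel. *SLC39A8* (ZIP8) exceeded it in culture 3 only, at 1 of 4 probe sets, with 6.92, 6.42 and 7.20, while its other probe sets had means of 5.01, 4.26 and 5.97. *SLC39A2* had a mean of 5.76, and the 3 probe sets of *SLC39A9* had means of 5.19, 5.26 and 4.59. *SLC41A3*, the only magnesium carrier of the SLC41 family measured, read 8.67, 8.43 and 8.53 and was above background.

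In the iron genes the uptake receptor and the ferritin light chain were far above background, and transferrin itself was not. *TFRC*, the transferrin receptor, read 11.98, 11.22 and 11.39 at 1 probe set (mean 11.53 ± 0.40, SD, n = 3) and 11.50, 10.95 and 11.13 at the other (11.19 ± 0.28). Both probe sets were highest in culture 1 and lowest in culture 2, and both passed limma's one-sided test over the threshold (adjusted p = 7.8e-09 and adjusted p = 4.2e-09). Culture 1 exceeded the mean of the others by 0.68 and 0.46 log2 units, or 1.60-fold and 1.38-fold. A range as wide as the 0.76 of the first occurred in 4.47% of all probe sets above background, and as wide as the 0.55 of the second in 13.2%. *FTL*, the ferritin light chain, read 13.10, 12.69 and 12.63 at 1 probe set and 11.18, 11.26 and 10.99 at the other. The first was highest in culture 1 by 0.45 over the mean of the others, while at the second cultures 1 and 2 lay within 0.1 of each other. Both *FTL* probe sets are of the _x_at kind, and ferritin pseudogenes are many.

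The 4 probe sets of *TF*, the transferrin of plasma, were all at background. They read 5.16, 4.93 and 5.08, then 5.60, 5.42 and 5.37, then 5.71, 5.83 and 5.83, and last 3.59, 3.60 and 3.66. *ACO1*, the cytosolic aconitase that serves as iron regulatory protein 1, read 7.88, 7.79 and 8.14 (limma, one-sided, adjusted p = 4.2e-05), with culture 3 the highest. *SLC11A2* (DMT1), which moves ferrous iron out of endosomes, was above background at 2 of 4 probe sets, with 7.61, 7.65 and 7.73 and with 7.34, 7.48 and 7.21. Its other probe sets read 6.73, 6.74 and 6.78 and 5.72, 5.79 and 5.54, so they disagreed on the call. At 3 scaled MADs over the panel median none was above background. *SLC11A1* (NRAMP1), a carrier of macrophage phagosomes, stayed at background at 4 of 4 probe sets. They read 6.52, 5.82 and 5.88, then 5.83, 5.59 and 5.31, then 6.67, 6.38 and 6.17, and last 4.68, 4.88 and 4.65. Immune markers were likewise not above background.

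**Figure D3:**
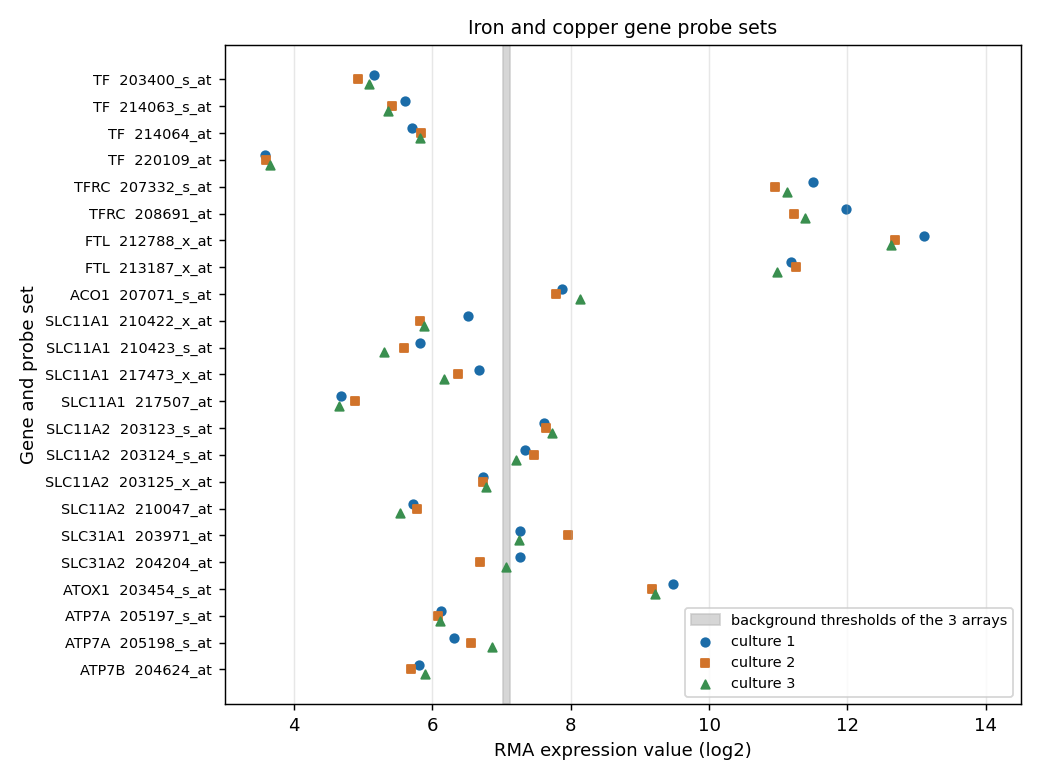
RMA log2 expression values of 23 probe sets of iron and copper genes, 1 point per culture, with the grey band spanning the background thresholds of the 3 arrays. *TFRC* and *FTL* lie between 10.95 and 13.10, *TF* and *SLC11A1* lie left of the band in every culture, and *SLC31A1* lies right of it by a small margin except in culture 2.

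Of the copper genes the chaperone *ATOX1* was above background and both copper pumps were not. *ATOX1* read 9.48, 9.18 and 9.22 (mean 9.29 ± 0.16, SD, n = 3, limma adjusted p = 5.1e-08), highest in culture 1. *ATP7A*, the pump defective in Menkes disease, read 6.31, 6.56 and 6.87 at 1 probe set and 6.13, 6.09 and 6.11 at the other. *ATP7B*, the pump defective in Wilson disease, read 5.80, 5.69 and 5.89. All 3 probe sets stayed under the threshold on each array, which does not show that the transcripts are absent. *SLC31A1* (CTR1), the high-affinity copper importer, read 7.27, 7.97 and 7.25. It was above the threshold on every array, but by little except in culture 2, and its mean over the threshold was 0.41 (limma, one-sided, adjusted p = 0.043). Culture 2 exceeded the mean of the others by 0.70, and a range as wide as its 0.72 occurred in 5.77% of all probe sets above background. The call ended with the highest panel gene as threshold (mean over the threshold 0.014) and at 3 scaled MADs over the panel median (-0.16). *SLC31A2*, its relative, read 7.27, 6.69 and 7.07 and exceeded the threshold in culture 1 only, with culture 2 the lowest, where *SLC31A1* was highest.

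Between cultures the members varied about as much as other probe sets. The median SD over the 3 cultures was 0.156 for the 61 members and 0.143 for all probe sets with 1 gene. Of the 28 members above background 5 had a range of 0.5 log2 units or more (17.9%), against 17.7% of all probe sets above background. These were *TFRC* at both probe sets, *MT1X* at 1, *SLC39A6* at 1 and *SLC31A1*. Culture 1 was the highest in 14 of the 28, against 38.5% of all, culture 2 in 8, against 28.0%, and culture 3 in 6, against 33.5%. Culture 1 was the lowest in 8, against 41.2%, culture 2 in 14, against 33.0%, and culture 3 in 6, against 25.7%. The culture farthest from the other two was culture 1 in 13, against 51.0%, culture 2 in 8, against 24.3%, and culture 3 in 7, against 24.7%. Culture 1 was thus more often the highest and less often the lowest among the members than among all probe sets, a difference that was not tested. Of the 14 members highest in culture 1, 7 were metallothionein probe sets, which may bind the same transcripts. The 14 are therefore not independent, and the excess cannot be read as a trait of the members at large.

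Most metallothionein probe sets above background and both of *TFRC* shared 1 order of cultures. Culture 1 exceeded culture 3, and culture 3 culture 2, at 7 of the 9 metallothionein probe sets above background and at both of *TFRC*, as well as at *ATOX1* and *SLC41A3*. These 11 of 28 members, 7 of them metallothionein probe sets, compare with 21.5% of all probe sets above background. Since this order was picked from these same values, the count describes the members and tests nothing. The order appeared at none of the 4 zinc exporter and 4 zinc importer probe sets above background, nor at *MTF1*, *ACO1* or *FTL*. Culture 1 exceeded the mean of the others at the metallothioneins by a median of 0.14 log2 units, from -0.06 to 0.54, while the median over all probe sets above background was -0.01. Probe sets that bind the same transcripts must move together, so the 7 are not 7 observations. The 4 simple epithelial markers had the same order at 4 of 4, with log2 values summing to 45.07, 42.95 and 43.72 in cultures 1, 2 and 3 and with none at background. Of the 3 proliferation markers, also above background, 1 had this order. Of the 6 corneal epithelial markers, which were at background, 3 had it. *KRT7* alone read 11.08, 9.90 and 10.27. The resistances fell in the same order, and the 3′ excess of *GAPDH* was largest in culture 1. The part of these in the order was not tested, and 1 array per culture allows no test of a culture.

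**Figure D4:**
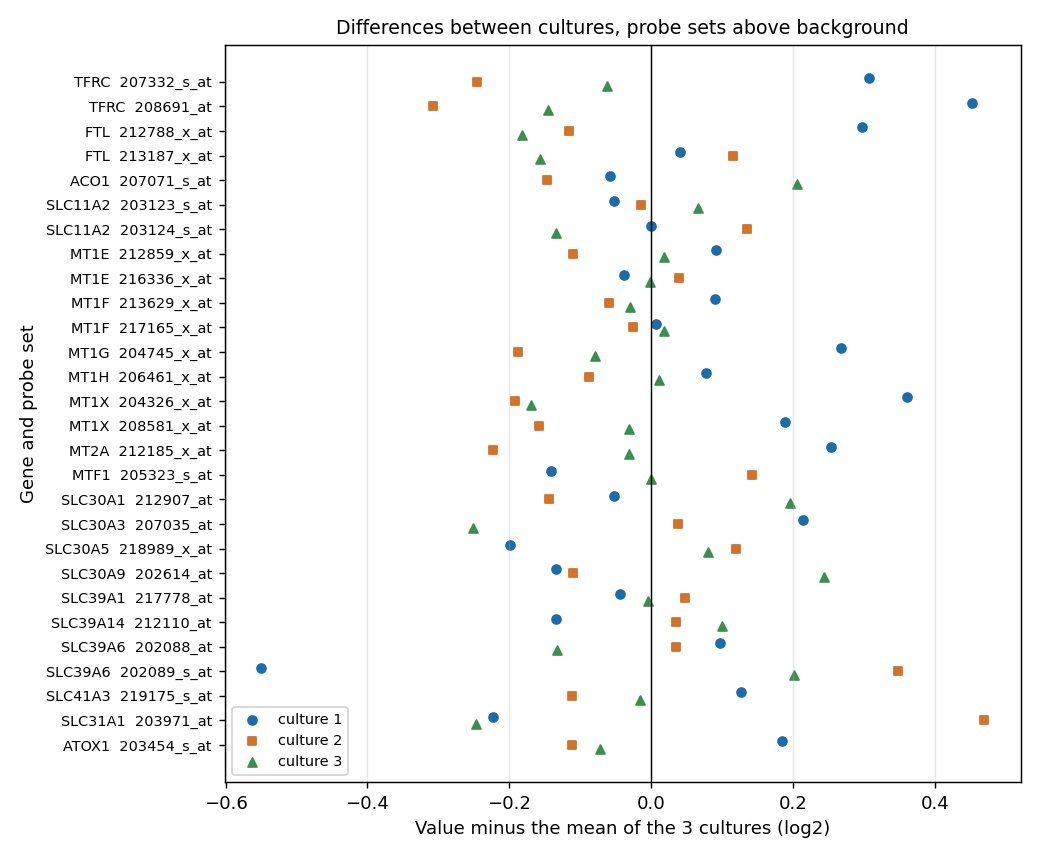
Difference of each culture from the mean of the 3 cultures, in log2 units, for the 28 member probe sets above background, 1 point per culture. Culture 1 (circles) lies right of 0 at both *TFRC* probe sets and at 8 of 9 metallothionein probe sets, and far left of 0 at 1 probe set of *SLC39A6*, while culture 2 (squares) is the highest at *SLC31A1*.

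Other genes of the same pathways were taken from a list of 67. Most were above background in the groups of iron storage and regulation and of mitochondrial iron, heme and iron-sulfur clusters. In the mixed group of iron export and the hepcidin axis most were not, and *SLC40A1* was not part of it. In all 32 of 53 measured were above background, against 45.0% of all genes. Of 8 genes of iron storage and regulation 7 were above it, among them *NCOA4*, the receptor for ferritin autophagy (11.78, 11.74 and 11.80), the iron chaperone gene *PCBP1* (10.32, 10.31 and 10.15) and *FBXL5*, which degrades iron regulatory protein 2 (8.42, 8.42 and 8.48). The exception was *HMOX1*, the inducible heme oxygenase, at 6.53, 6.18 and 6.18, whereas the constitutive *HMOX2* read 8.73, 8.49 and 8.92. Thus the stress-inducible enzyme stayed at background and its constitutive relative did not.

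Of 14 genes of mitochondrial iron, heme and iron-sulfur clusters 10 were above background, among them *GLRX5* (10.40, 10.62 and 10.69) and the scaffold gene *ISCU* (9.39, 8.90 and 9.19). The exceptions were *SLC25A37*, a mitochondrial iron importer, at 5.94 ± 0.22, *ABCB8* at 5.44 ± 0.18 and the heme synthesis genes *CPOX* at 6.24 ± 0.04 and *ALAD* at 6.48 ± 0.21 (SD, n = 3 for each). *SLC25A28*, a carrier of the same family, was above background with 7.95, 8.06 and 8.14. Of 8 genes of iron export and the hepcidin axis only *TMPRSS6* was above background (7.50, 7.55 and 7.18, limma adjusted p = 0.022). In culture 3 it passed the threshold of 7.10 by little. *HAMP*, the hepcidin gene of liver, had a mean of 5.10, the ferroxidase genes *HEPH* and *CP* 4.13 and 4.91, *HFE* 6.88, *BMP6* 5.62 and *FLVCR2* 5.60, and *NEO1* exceeded the threshold on 2 arrays (7.17, 7.53 and 7.05).

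Of 8 genes of iron uptake and reduction 3 were above background. *LCN2*, the siderophore-binding lipocalin of epithelial defense, read 10.63, 9.80 and 9.72, highest in culture 1 and with a range of 0.91. The ferrireductase gene *CYBRD1* read 7.75, 7.47 and 7.50. *STEAP3*, the endosomal ferrireductase, read 7.17, 7.18 and 7.28, above the threshold on each array but not past the limma test (adjusted p = 0.25). *TFR2*, *STEAP1*, *STEAP4*, *LRP1* and *LTF* were not above background, with means of 6.44, 6.24, 4.23, 7.06 and 5.16.

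Of 12 copper genes 8 were above background, and the others were *LOX*, *LOXL1*, *DBH* and *TYR*. *SOD1*, the copper-zinc superoxide dismutase, read 11.49, 11.59 and 11.65, and its copper chaperone gene *CCS* 7.72, 8.39 and 8.36, with culture 1 lowest in both. *LOXL2*, a copper-dependent lysyl oxidase, had the widest range of the 53 genes, with 8.34, 8.85 and 9.28. *COX11*, which delivers copper to cytochrome oxidase, followed *LCN2* with 9.13, 9.49 and 9.89. The other genes among the 10 of widest range were *DBH* (range 0.67) and *STEAP1* (0.59), both at background, *BACH1* (0.53), *HFE* (0.52, at background), *BLVRA* (0.50) and *ISCU*. All 3 measured genes of the zinc and metal response list were above background, *NFE2L2* at 9.87 ± 0.18, *KEAP1* at 8.26 ± 0.12 and *BACH1*, the heme-sensing repressor, at 7.89 ± 0.27 (SD, n = 3 for each).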

How the data were processed

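RNA of 3 iHCE replicate cultures was hybridized to HG-U133A arrays, 1 per culture. Per the submitters' processing notes and the methods, the authors computed the values by RMA in R 2.8.0 and deposited log2 expression values for 22283 manufacturer's probe sets, although the methods describe a custom chip definition. RMA corrects background, quantile normalizes the arrays and summarises perfect-match probes, so low values are compressed toward background and differences in total brightness are removed. The methods describe normalization across cultures and tissue arrays together, and whether the deposited values come from that run, and the genome build of the annotation, are not given in the sources used here. With 3 arrays and no read counts, the number of arrays limits the precision.

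Probe sets were named by the platform annotation, with symbols updated by Entrez number in RefSeq (GRCh38.p14). Of them 19071 had 1 gene, 1043 several and 2169 no symbol here, and 12 of the first were not found in RefSeq and kept their name. The panel of other tissues listed 69 genes, of which 60 were measured, each at its brightest probe set. A probe set above the 95th percentile of the panel on all 3 arrays was called, so the panel share above background (1 of 60, *SFTPB*) follows from the rule. limma 3.58.1 (R 4.3.3) tested value minus threshold across all 19071 probe sets, one-sided, with Benjamini-Hochberg adjustment and a threshold of 0.05, taking each array's threshold as fixed. Each culture has its own array, so the SD covers culture and array. The calling code was tested on simulated data. Members and lists were chosen with earlier results of these data known. Values by culture are given for every metallothionein, MTF1, iron and copper probe set and, of the SLC30, SLC39 and SLC41 genes, for those above background, exceeding the threshold on 1 or 2 arrays, or of genes whose probe sets disagree. Of the other pathway genes the exceptions and the 10 of widest range are named by rule, and further ones as examples chosen after their values were seen. Alternatives were other thresholds, all panel probe sets, the limma call, quantile normalization, no _x_at or _s_at probe sets, the mean over probe sets and leaving out each replicate. Python 3.11.15 and pandas 2.3.3 were used.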

Additional observations from a re-analysis of the deposited data

How the results depend on the processing

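The count of member probe sets above background (28) ran from 22 (26.5% of all probe sets) to 31 (41.4%) and that of member genes (21) from 17 (34.1% of all genes) to 24 (48.5%) under other thresholds, all panel probe sets, the limma call, quantile normalization and the mean over probe sets, and from 28 to 29 and from 21 to 22 when a replicate was left out. Without _x_at and _s_at probe sets, in members and panel, which also lowers the threshold, 8 of 24 member probe sets (35.9% of all), 8 of 22 member genes, 8 of 18 probe sets given by culture and 17 of 33 other metal genes (40.0% of all genes for both gene counts, main count 32, 16 shared) were above background, and 2 of 8 had a range of 0.5 or more. The calls of the metallothioneins, *FTL*, *ACO1*, *ATOX1*, *MTF1*, *SLC11A2*, *SLC30A5* and *SLC41A3* rest on such probe sets. Of the 5 members with a range of 0.5 or more, 1 was left without replicate 1 (*SLC31A1*), and the count ran from 1 to 5 over the replicates left out. The median SD of members (0.156) ran from 0.104 to 0.163 without a replicate. Other metal genes above background ran from 23 to 35 under the other alternatives and from 32 to 33 without a replicate, and probe sets given by culture from 28 to 29. At 3 scaled MADs over the panel median *SLC31A1* lay at -0.16 and the dimmer called probe set of *SLC11A2* at -0.31, and *MTF1*, *SLC30A5*, the other called probe set of *SLC11A2* and the dimmer one of *SLC39A6* were no longer above background on all arrays. With the highest panel gene the dimmer called probe set of *SLC11A2* lay at -0.14, and the calls of *SLC31A1*, *SLC30A5* and the dimmer probe set of *SLC39A6* ended. *SLC39A7*, *SLC39A4* and the second probe set of *MTF1* were gained with the 90th percentile, and *SLC39A7* without replicate 1 too. No paired analysis was possible because the series has 1 group.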
